A study of Mus musculus with 6 samples.

Results

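The transcripts of 45 genes for messenger ribonucleoprotein, mRNA stability and translational control proteins were examined in the E13.5 mouse cortex after deletion of Ybx1. They were chosen by name, as cytoplasmic mRNA-binding, stress granule, decapping and deadenylation proteins that act beside Ybx1, and all 45 were found among the 17348 genes of the table. All 45 also passed the filter on low counts, which left 13340 genes. RNA of 3 WT and 3 cKO cortices of E13.5, numbered as replicates 1 to 3 in each genotype, had been sequenced, from mice kept on a C57BL/6J background. The cKO embryos carried Nestin-Cre and Ybx1 fl/fl, so that Cre driven from Nestin, in neural progenitors and the cells they give rise to, removes the later exons of Ybx1. The controls are labelled WT and headed Ctrl in the table, and the study's RNA sequencing methods call them wild type littermates of the cKO. The study's general Ctrl genotype, however, is Ybx1 fl/fl without Cre. Whether the WT libraries carried floxed alleles is therefore not settled here, and an effect of Nestin-Cre itself cannot be told apart from the deletion. It is not stated whether a library came from 1 embryo or from several.

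Messenger RNA leaves the nucleus coated with proteins that decide how long it lasts and how often it is translated. Ybx1, a cold shock domain protein, is an abundant coat protein of this kind, and it shares particles with the poly(A)-binding protein Pabpc1 and with the stress granule proteins G3bp1 and Caprin1. Decay usually begins when the CCR4-NOT complex shortens the poly(A) tail, after which Dcp2 and its activators remove the cap and the exonuclease Xrn1 degrades the body of the transcript. In the embryonic cortex, Msi1 and the Igf2bp proteins are known from progenitors, whereas Elavl2, Elavl3, Elavl4 and Celf4 are known from neurons.

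Library totals lay between 15907486 and 16282921 estimated counts. Ybx1 gave 1021, 528 and 1220 CPM (counts scaled to the normalised library size) in the WT libraries, in the order of replicates 1, 2 and 3 that is kept throughout, and 83.1, 117 and 147 in the cKO libraries. The sample labelled WT replicate 2 lay between its own group and cKO. Ybx1 had a log2 fold change of -3.00 with a standard error of 0.33, and edgeR's quasi-likelihood test over 13340 genes gave it an adjusted p-value of 0.128. Of the other cell types the tissue could hold, 7 meninges and skin markers summed to 481 TPM (transcript abundance scaled for length and depth) in cKO replicate 3 and to between 3.94 and 6.43 in the other 5 libraries. The 8 interneuron markers summed to between 107 and 157 TPM in WT and between 240.0 and 257 in cKO. Sst alone gave between 48.9 and 64.6 TPM in WT and between 120 and 136 in cKO. Gad1, Dlx5 and Npy were also higher in cKO without overlap, while Gad2, Dlx1, Dlx2 and Lhx6 overlapped. All 8 radial glia markers and all 8 neuron markers were above 0 in every library, so the defining markers of the labelled tissue were present. The part of these differences in the results below was not tested, except that the main counts are also given without the libraries that stood apart.

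As a group, the 45 transcripts differed little between genotypes, and those that separated the genotypes were all lower in cKO. No member passed the test: with the threshold of the edgeR test at an adjusted 0.05, the members counted 0 higher and 0 lower, and the background was 0% of all genes tested in either direction. At an unadjusted p-value under 0.05, 0 members were higher and 4 were lower (Dcp2, Ddx6, Elavl2 and Cpeb1), or 8.89% of the list, against a background of 1.75% higher and 1.81% lower. Without overlap of the genotypes in CPM, 7 of the 45 were lower in cKO, or 15.6%, against a background of 4.83%, and 0 were higher, against 4.21%. The 7 were Dcp2, Ddx6, Dcp1a, Elavl2, Cpeb1, Celf1 and G3bp2. The median log2 fold change of the members was -0.05, and that of all genes tested was 0.00. Of the members 34 had a negative and 11 a positive value, so that 75.6% were negative, against 49.2% of all genes. The members were chosen with earlier results of these data known, so these shares describe the list and are no test of it. In bulk tissue, fewer cells of a type and less RNA per cell cannot be told apart.

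DESeq2 and limma-voom also called 0 members after adjustment, and before it they gave 3 and 4 lower members, against 1.44% and 1.82% of all genes, and 0 higher ones, against 1.11% and 1.52%. With the sample labelled WT replicate 2 and also cKO replicate 3 left out, 1 of the 45 members was lower at an unadjusted p-value under 0.05 (Dcp2), against 1.06% of all genes, a count close to that background. The count was 2 without cKO replicate 3 alone (Dcp2 and Ddx6), against 1.40%. The median of the members was -0.02 without cKO replicate 3 and -0.01 with both left out. Without overlap, 8 members were lower with both left out, all 7 above and Pabpc4, but with fewer libraries the background was then 13%. In TPM, 7 members were lower without overlap, against 3.95% of all genes: Dcp2, Ddx6, Celf1 and Cpeb1 as in CPM, and Caprin1, Pum2 and Msi2 in place of Dcp1a, Elavl2 and G3bp2. In TPM 1 member, Zfp36l2, was higher, against 4.62%.

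**Figure D1:**
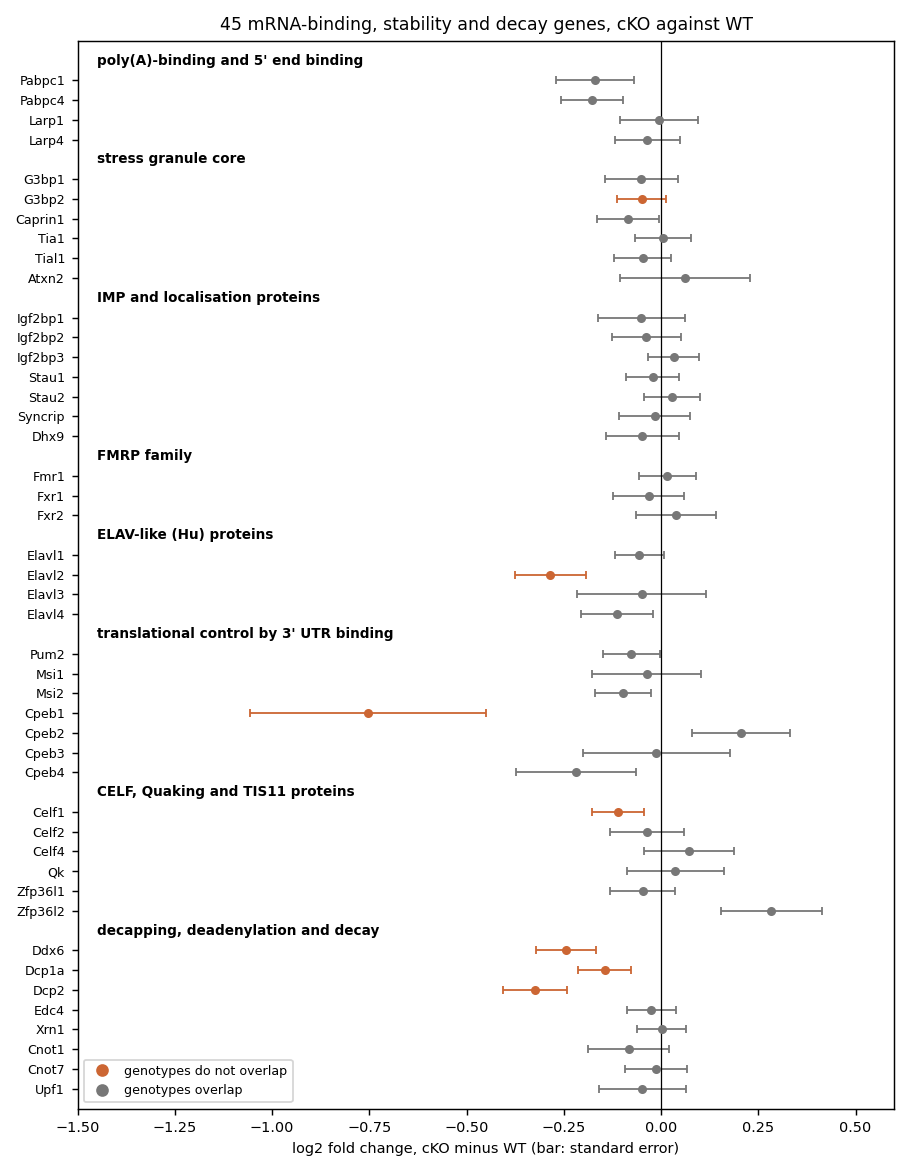
Log2 fold changes of the 45 members, cKO minus WT, by role, with bars for the standard error of the edgeR fit. The 7 members drawn in orange had all cKO libraries below all WT libraries, as had 4.83% of all genes tested. Of the 7, 3 (Ddx6, Dcp1a and Dcp2) belong to the 8 decapping, deadenylation and decay genes. Of the 15 further decapping and 5' to 3' decay genes, not drawn, 0 were lower and 2 higher without overlap.

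Decapping genes gave the lowest p-value among the members. Dcp2 (Entrez gene 70640, chromosome 18) encodes the enzyme that cleaves the cap from mRNA. It gave 120, 133 and 127 CPM in WT and 93.0, 111 and 100 in cKO. The highest value in cKO thus stayed under the lowest in WT, and in both genotypes replicate 1 was the lowest. The means were 127 ± 6.48 CPM in WT and 101 ± 8.97 in cKO (SD, n = 3 each), so that cKO held 80.0% of the WT level. The log2 fold change was -0.32 (standard error 0.08), and edgeR gave an unadjusted p-value of 0.00437 and an adjusted one of 0.99995. In TPM the genotypes were also apart, at 31.8 ± 0.391 in WT and 25.5 ± 1.34 in cKO (SD, n = 3 each). Over the 15 alternatives tried, the value stayed between -0.39 and -0.26, and the unadjusted p-value was under 0.05 in 15 of them, while the adjusted p-value was at lowest 0.294.

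Ddx6 (13209, chr9:44602983-44640731 in GRCm38) encodes the DEAD-box helicase of processing bodies, which represses translation and activates decapping. It gave 435, 475 and 470 CPM in WT and 365, 406 and 394 in cKO. The genotypes did not overlap, and in each of them replicate 1 was again the lowest library. Means were 460 ± 21.7 and 388 ± 20.9 CPM (SD, n = 3 each). This was a log2 difference of -0.24 (standard error 0.08), with p-values of 0.0134 unadjusted and 0.99995 adjusted by edgeR. Unadjusted, edgeR gave 0.0864 when the pair of libraries that stood apart was left out, and 0.0566 without WT replicate 3.

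Dcp1a (75901, chr14:30479486-30527056) encodes the cofactor that binds Dcp2. It gave 78.8, 71.7 and 75.4 CPM in WT and 69.8, 69.9 and 64.7 in cKO. The gap between the nearest libraries, WT replicate 2 and cKO replicate 2, was small beside the spread within WT. The log2 difference was -0.14 (standard error 0.07), with p-values of 0.0667 unadjusted and 0.99995 adjusted by edgeR. On the TPM scale the genotypes of Dcp1a overlapped.

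The other 5 genes of this role overlapped between genotypes. Edc4, the scaffold on which the decapping enzyme assembles, kept 98.3% of its WT mean, and Xrn1, which degrades decapped mRNA, 100.1%. Cnot1, the scaffold of the CCR4-NOT complex, kept 94.4%, its deadenylase subunit Cnot7 99.1%, and Upf1, the helicase of nonsense-mediated decay, 96.8%. Lower values were therefore found for Dcp2, its cofactor and its helicase activator and not at a like size for Edc4, Xrn1 or Cnot7. The difference between these genes was not tested. Nor was the lower level shared by the 15 further decapping and 5' to 3' decay genes described below. Of those, 0 were lower without overlap, against 4.83% of all genes, and their median log2 fold change was 0.04. Ddx6 stood at 200 ± 7.30 TPM in WT and Cnot7 at 181 ± 15.3, with overlap of their libraries, and the levels of Dcp2 (31.8 ± 0.391) and Dcp1a (29.7 ± 2.77) overlapped. In every library there were between 6.09 and 7.07 Ddx6 transcripts for each Dcp2 transcript by TPM, and the ranges of the genotypes overlapped.

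**Figure D2:**
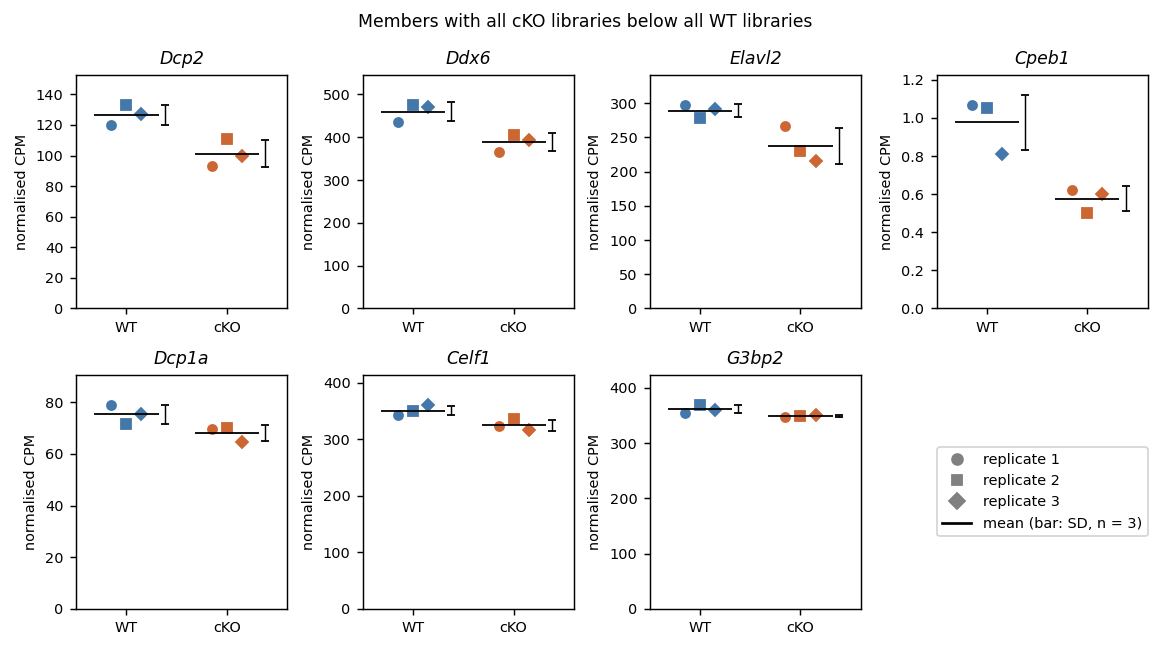
Normalised CPM of the 7 members with all cKO libraries below all WT libraries, each library a point (symbols give the replicate number), the line the mean and the bar the SD of n = 3. Dcp2 ran from 120 to 133 CPM in WT and from 93.0 to 111 in cKO, whereas the gap of G3bp2 was narrow.

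Among the ELAV-like proteins, which bind AU-rich elements and stabilise mRNA, Elavl2 was the member that separated the genotypes. Elavl2 (15569, chr4:91211533-91400108) gave 297, 279 and 292 CPM in WT and 267, 231 and 215 in cKO. The highest value in cKO, that of replicate 1, was below the lowest in WT, that of replicate 2, but the genotypes overlapped in TPM. The means were 289 ± 9.65 and 238 ± 26.3 CPM (SD, n = 3 each), and the log2 difference was -0.28 (standard error 0.09), with p-values of 0.0143 unadjusted and 0.99995 adjusted by edgeR. Without cKO replicate 3 the unadjusted p-value of this test was 0.0567. Elavl1, which is expressed in most cell types, and the neuronal Elavl3 and Elavl4 kept 96.2%, 96.6% and 92.5% of their WT means, and each overlapped.

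The Elavl2 share of its family was also lower. Elavl2 made up 24.9%, 27.7% and 26.6% of the summed TPM of Elavl1, Elavl2, Elavl3 and Elavl4 in WT and 23.0%, 24.2% and 23.8% in cKO. The shares did not overlap, with means of 26.4 ± 1.43% and 23.6 ± 0.615% (SD, n = 3 each) and a difference of -2.73 percentage points. An exact two-sided permutation test gave p = 0.1, the smallest value that 3 against 3 libraries allow, and 0.575 after adjustment over the 23 shares of 11 families. Elavl3 took the largest share in WT, at 35.6 ± 2.91%, followed by Elavl4 at 28.3 ± 0.656% and Elavl1 at 9.71 ± 0.852%, and none of these separated.

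Ybx1 takes its name from the Y-box, a promoter element that holds an inverted CCAAT, and this element was looked up in the promoters of the members. The letters CCAAT were searched on both strands (CCAAT or ATTGG) in RefSeq windows of GRCm38.p6 from 250 bases before to 50 bases after each listed start. They stood in 37.4% of all 32851 windows and in 19 of 58 windows (32.8%) of the 34 members that matched. Of the 7 members that separated the genotypes, Dcp2 and Ddx6 were not among those matched. Elavl2 held the letters in 5 of 6 windows, which stand at 2 separate places where windows overlap, and G3bp2 in 1 of 3. Celf1, Cpeb1 and Dcp1a, with 1 window each, held none. Copies were listed only where the printed stretch lay wholly within the 250 bases before a start. Of those listed, the 2 Elavl2 copies with the shortest distance to a start and the G3bp2 copy are shown, so that both orientations can be seen. All are written 5′ to 3′ on the minus strand, which is the strand of both genes, with the match in capitals. The Elavl2 copies, at chr4:91376584-91376613, 104 bases before the start, and at chr4:91376533-91376562, 53 bases before it, read CCAAT and so stand in the forward orientation. The G3bp2 copy, at chr5:92083784-92083813, 202 bases before a start, reads ATTGG and is the inverted one.
Elavl2 distal copy: cataagtccctagCCAATcacctagcagag
Elavl2 proximal copy: agaagcgtctcgcCCAATcagaaacctggg
G3bp2 copy: aaactgatgcctgATTGGctggcgctgtgc
A match of these letters is a description of the window and does not show that a factor binds there.

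The CPEB proteins, which bind cytoplasmic polyadenylation elements and hold or release translation, included the 3 least abundant members. Cpeb1 (12877, chr7:81347026-81458001) rested on 17, 17 and 13 counts in WT and 10, 8 and 10 in cKO. These are 1.07, 1.05 and 0.81 CPM in WT and 0.62, 0.50 and 0.60 in cKO. The genotypes did not overlap, with a log2 fold change of -0.75 (standard error 0.30, unadjusted p-value 0.0381, adjusted p-value 0.99995 by edgeR), but at these counts the size is poorly fixed. The unadjusted p-value was under 0.05 in 4 of 14 alternatives, and it was 0.169 with DESeq2 and between 0.0443 and 0.109 by edgeR with 1 library left out. It was -0.23 on the log2(TPM + 1) scale, which understates the change of low genes. Cpeb4 was the predominant member of the family, and it gave 107, 81.9 and 89.8 CPM in WT and 98.1, 75.0 and 66.6 in cKO, with overlap. Cpeb2 gave 14.6, 12.4 and 14.8 CPM in WT and 17.4, 13.8 and 17 in cKO, also with overlap.

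Within the family, the balance of Cpeb2 and Cpeb4 separated the genotypes. Cpeb4 made up 79.1%, 77.1% and 76.2% of the summed CPEB TPM in WT and 75.0%, 75.0% and 70.9% in cKO. Cpeb2 made up 11.7%, 12.6% and 13.7% in WT and 14.5%, 15.1% and 19.7% in cKO. The differences were -3.82 and 3.76 percentage points, each with an exact permutation p = 0.1 (0.575 adjusted over 23 shares). Without cKO replicate 3, the library with the meninges and skin markers and the most extreme shares, they were -2.47 and 2.15 points. Cpeb1 went from 1.58 ± 0.136% to 1.04 ± 0.288% (SD, n = 3 each), with the same p-values, and Cpeb3 overlapped. The shares of a family sum to 100, so these are not independent. Besides Elavl2, Cpeb1, Cpeb2 and Cpeb4, the other 19 of the 23 shares overlapped between genotypes.

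**Figure D3:**
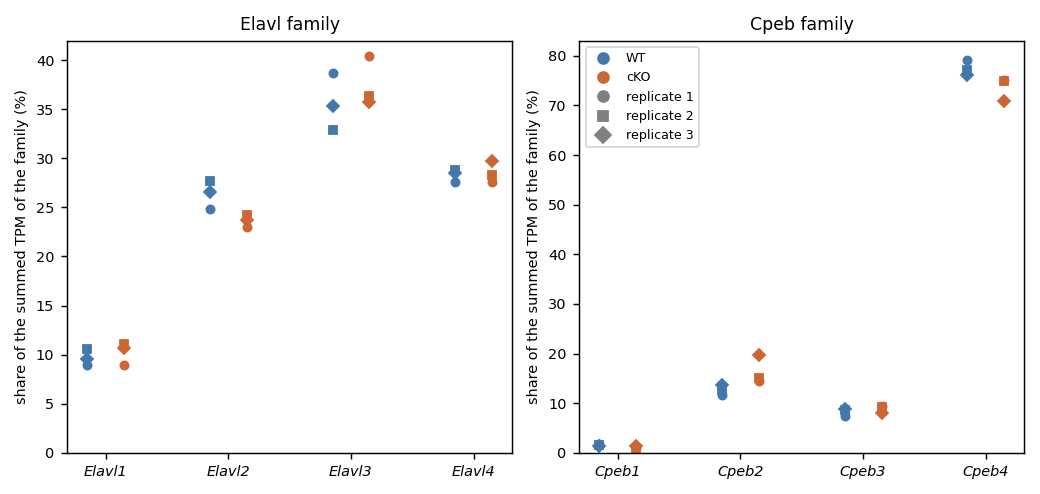
Share of each paralog in the summed TPM of its family, in percent, for the Elavl and Cpeb families, each library a point (blue WT, orange cKO, symbols for the replicate number). Elavl2 and Cpeb4 lay lower and Cpeb2 higher in all 3 cKO libraries, while Elavl1, Elavl3, Elavl4 and Cpeb3 overlapped.

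Translational repressors of the same role otherwise overlapped in CPM. Msi1 and Msi2, the Musashi proteins of neural progenitors, kept 97.4% and 93.4% of their WT means, and Pum2, a Pumilio protein that recruits deadenylases, kept 94.9%. Msi1 varied widely inside each genotype, from 262 to 344 CPM in WT and from 241 to 321 in cKO. In TPM, Pum2 (155 to 161 in WT, 148 to 152 in cKO) and Msi2 (83.9 to 85.8 in WT, 77.3 to 81.3 in cKO) did not overlap.

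Of the CELF, Quaking and TIS11 proteins, Celf1, which binds GU-rich elements and promotes deadenylation, separated the genotypes. Celf1 (13046, chr2:90940259-91019497) gave 343, 349 and 360 CPM in WT and 323, 336 and 316 in cKO. Its log2 fold change was -0.11 (standard error 0.07), with p-values of 0.134 unadjusted and 0.99995 adjusted by edgeR. Celf2 and Celf4 kept 97.5% and 105% of their WT means. Qk, an RNA-binding protein of glia and progenitors, kept 103%, and Zfp36l1, which marks AU-rich transcripts for decay, kept 96.7%.

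Zfp36l2, a paralog of Zfp36l1, had the highest positive log2 fold change among the members, at 0.28 (standard error 0.13, unadjusted p-value 0.0590, adjusted p-value 0.99995 by edgeR). It gave 21.3, 24.2 and 21.6 CPM in WT and 23.8, 25.7 and 32.2 in cKO. The highest value was that of cKO replicate 3, the library with the meninges and skin markers, and the part of those cells in it was not tested. Its other 2 cKO libraries lay inside or close to the WT range.

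Of the 6 stress granule genes, G3bp2 separated the genotypes, by a narrow gap. G3bp2 (23881, chr5:92052145-92137725) gave 355, 369 and 361 CPM in WT and 348, 349 and 350.2 in cKO, with no overlap but a log2 fold change of only -0.05 (standard error 0.06, unadjusted p-value 0.457, adjusted p-value 0.99995 by edgeR). When libraries were scaled by their totals alone, and on the TPM scale, G3bp2 overlapped. G3bp1, its paralog and the core of stress granules, kept 96.6% of the WT mean, and Caprin1, its partner, 94.2%. Tia1 and Tial1, which carry stalled transcripts into granules, kept 100.4% and 96.8%. Atxn2, a granule protein that binds the poly(A)-binding protein, kept 104% and varied widely inside each genotype, from 109 to 148 CPM in WT and from 105 to 161 in cKO. In TPM, Caprin1 did not overlap, at 628 to 638 in WT and 585 to 609 in cKO.

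The poly(A)-binding proteins had some of the lower values without separating the genotypes. Pabpc1, the main cytoplasmic poly(A)-binding protein, gave 716, 761 and 826 CPM in WT and 628, 765 and 655 in cKO, with a log2 difference of -0.17 (standard error 0.10, unadjusted p-value 0.132 by edgeR). Pabpc4 gave 147, 131 and 141 CPM in WT and 118, 134 and 118 in cKO, with a log2 difference of -0.18 (standard error 0.08, unadjusted p-value 0.0557 by edgeR). For both, cKO replicate 2 was the library that lay among the WT values. Pabpc1 made up 86.2 ± 1.26% of their summed TPM in WT and 86.3 ± 0.392% in cKO (SD, n = 3 each). Larp1 and Larp4, La-related proteins that bind mRNA ends and the poly(A)-binding protein, kept 99.6% and 97.6%.

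The mRNA localisation proteins and the FMRP family were those closest to no difference. All 7 localisation genes had log2 fold changes between -0.05 and 0.03. Igf2bp1, Igf2bp2 and Igf2bp3, which shield target mRNAs from decay, kept 96.6%, 97.5% and 102% of their WT means. The double-stranded RNA-binding transport proteins Stau1 and Stau2 kept 98.5% and 102%, and Syncrip and the helicase Dhx9 98.9% and 96.7%. Fmr1, the fragile X protein that represses translation at synapses, and its paralogs Fxr1 and Fxr2 kept 101%, 97.9% and 103%. In 28 of the 45 members the fitted difference was within 5% of WT, or 62.2%, against 45.9% of all genes tested. The same held for 51 of the 86 further machinery genes described below, so it was not particular to the members. The standard errors of the members lay between 0.06 and 0.30 on the log2 scale, so that small differences were not detectable at this spread.

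Levels between genes were compared in TPM, which is scaled for length. Pabpc1 was the most abundant member at 634 ± 34.1 TPM in WT, with Caprin1 beside it at 632 ± 5.64, and their libraries overlapped. Dhx9 followed at 317 ± 6.73, then G3bp1 at 285 ± 8.07 and Msi1 at 274 ± 49.6. The libraries of Msi1 overlapped with those of both G3bp1 and Dhx9, while the last pair did not overlap with each other. Ybx1 itself stood at 1016 ± 403 TPM in WT (SD, n = 3) and at 126 ± 33.6 in cKO. It was above Pabpc1 and Caprin1 in WT replicates 1 and 3, and below both in the sample labelled WT replicate 2 and in every cKO library. At the other end were Xrn1 (23.6 ± 0.641), Zfp36l2 (14.4 ± 0.674), Cpeb2 (4.31 ± 0.550), Cpeb3 (2.82 ± 0.261) and Cpeb1 (0.543 ± 0.119), in TPM of WT. The order of these last 5 held in every WT library without overlap between neighbours.

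**Figure D4:**
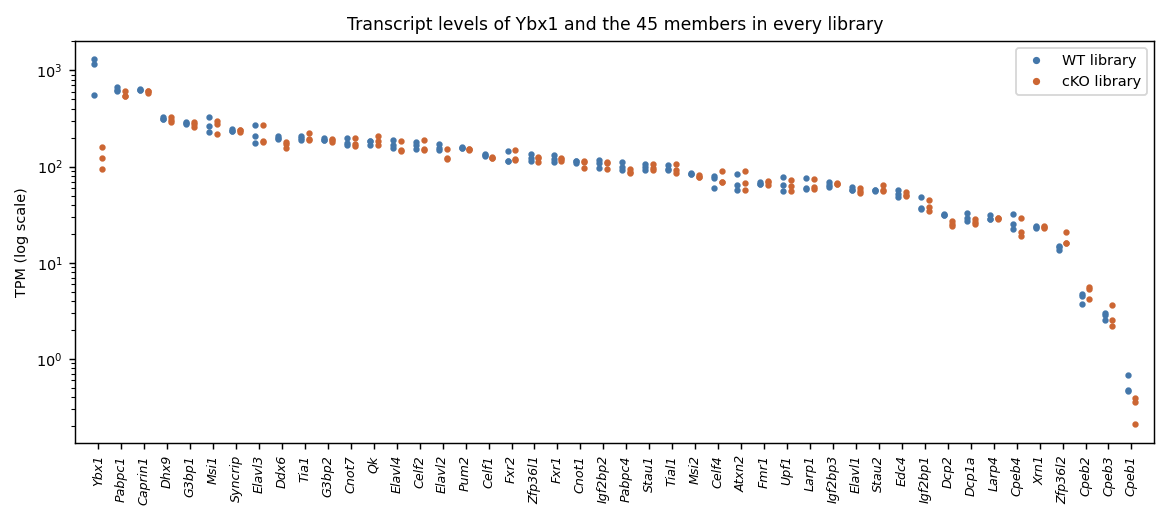
TPM on a log axis of Ybx1 and of the 45 members in each library, ordered by the WT mean (blue WT, orange cKO). Ybx1 stands apart by genotype, while most members have overlapping points.

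Some members varied with the replicate number more than with genotype. In both genotypes the replicate 1 library held more neuronal transcripts, with 4312 and 4528 TPM over the 8 neuron markers in WT and cKO replicate 1 and between 3357 and 3807 in the other 4 libraries. The 8 radial glia markers summed to 2388 and 2325 TPM there, and to between 3148 and 3306 in the others. Vim, Fabp7, Nes, Hes1 and Slc1a3 were each lower in both replicate 1 libraries than in the others. Pax6, Sox2 and Hes5 were not, so the radial glia markers did not all follow the replicate number. For 12 of the 45 members both replicate 1 libraries were the 2 highest of all 6, or 26.7%. They were Larp1, Atxn2, Igf2bp1, Stau1, Fxr2, Elavl3, Elavl4, Msi1, Cpeb4, Edc4, Cnot7 and Upf1. For another 7 both were the 2 lowest (Larp4, G3bp1, Syncrip, Dhx9, Qk, Xrn1 and Cnot1). The 19 together made up 42.2% of the members, against a background of 40.0%, so the pattern was about as frequent among them as among all genes. The neuronal gene Elavl3 gave 576 and 585 CPM in WT and cKO replicate 1 and between 405 and 483 in the other libraries, and Qk gave 355 and 358 against 409 to 478. In Elavl2 replicate 1 was the highest library and in Dcp2 and Ddx6 the lowest within each genotype, and the genotypes nevertheless stayed apart in CPM. The part of tissue makeup in these values was not tested.

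**Figure D5:**
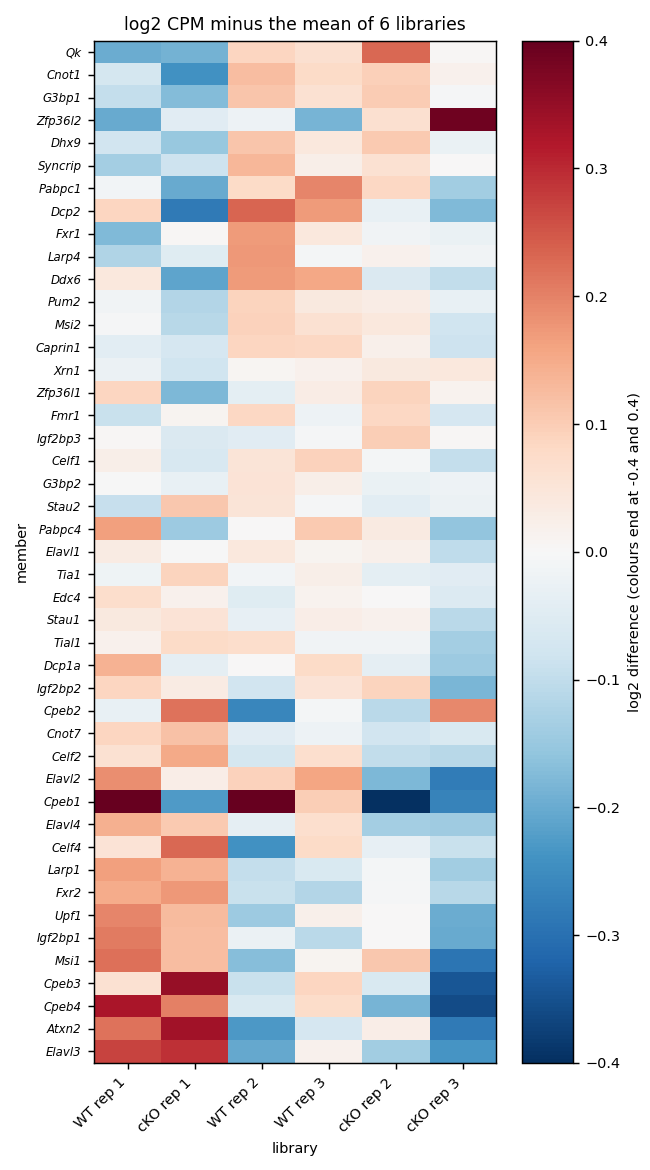
Deviation of log2 CPM from the mean of all 6 libraries for each member, with the replicate 1 libraries placed first and members ordered by their mean difference from the rest. Elavl3, Atxn2 and Upf1 are high and Qk and Cnot1 low in both replicate 1 libraries, while Zfp36l2 is highest in cKO replicate 3.

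The remaining machinery was read from 86 further genes listed by function, all of which passed the filter on low counts. After adjustment 0 were higher and 0 lower by edgeR, DESeq2 or limma-voom. Before it edgeR gave 1 higher and 1 lower, or 1.16% each, against 1.75% higher and 1.81% lower of all genes tested. Paip2, an inhibitor of the poly(A)-binding protein, differed by 0.22 on the log2 scale (standard error 0.09, unadjusted p-value 0.0441 by edgeR), from 184 ± 18.9 to 214 ± 12.4 CPM (SD, n = 3 each). Rc3h2, 1 of the Roquin proteins that mark stem-loop transcripts for decay, had -0.20 (standard error 0.08, unadjusted p-value 0.0364 by edgeR), from 156 ± 8.0 to 136 ± 10.5 CPM. Both overlapped between genotypes. The median log2 fold change of the 86 genes was 0.00, and 43 were negative and 43 positive.

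Of these 86 genes, 3 were higher and 2 were lower without overlap (3.49% and 2.33%, against 4.21% and 4.83% of all genes), and they are named here after their values were seen. Lsm14a, a partner of Ddx6 in processing bodies, gave 126, 145 and 138 CPM in WT and 147, 152 and 149 in cKO. Upf3b of nonsense-mediated decay kept 110% of its WT mean, and Lsm1, a subunit of the ring that binds deadenylated mRNA and activates decapping, kept 103%. Smg1, the kinase of Upf1, kept 94.1%, and Tnrc6b, a scaffold of microRNA silencing, 91.6%. Among the 15 further decapping and 5' to 3' decay genes, 2 were higher without overlap (Lsm1 and Lsm14a, 13.3%, against 4.21% of all genes) and 0 were lower, and the log2 fold changes lay between -0.05 and 0.13. All 16 further deadenylase genes and all 15 exosome genes overlapped between genotypes.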

How the data were processed

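Total RNA of the cortices was extracted with Trizol, made into mRNA libraries and sequenced on a DNBSEQ platform. Per the labels, the authors' processing named HISAT2 2.2.1, Bowtie2 2.4.5 and RSEM 1.3.1 with GRCm38 (mm10), and the annotation and strandedness are not given in the sources used here. Overlapping, antisense or near-identical genes are uncertain. The deposited estimated counts are not normalised (10.9% were not whole), the deposited TPM values are scaled for length and depth by the authors, and the deposited FPKM values and the 6 columns of group means were not used.

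Estimated counts were rounded and fitted over all genes with edgeR 4.0.16 in R 4.3.3 (quasi-likelihood test, TMM factors, filterByExpr with a minimum count of 10 and minimum total count of 15, genotype as the only term). The script was tested on simulated data. Adjusted p-values follow Benjamini and Hochberg over 13340 genes. The standard error is the log2 fold change divided by the square root of F. CPM are TMM-normalised. At most 1.66% of genes had equal counts in any pair of libraries, so none was counted as a duplicate. P-values measure the spread between these libraries. The series text speaks of 3 sequencing batches without saying which libraries each holds.

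Members and gene lists were chosen with earlier results of these data known. Values in every library were given by rule for members with no overlap of genotypes or an unadjusted p-value under 0.05. Others that were given so (Zfp36l2, Pabpc1, Pabpc4, Cpeb2, Cpeb4) were chosen after their values were seen. Alternatives were RLE factors, library totals alone, DESeq2 1.42.0, limma-voom (limma 3.58.1), no filter, a minimum of 10 counts in each library, limma on log2(TPM + 1), the replicate block, each library left out in turn, and WT replicate 2 with cKO replicate 3 left out.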

Additional observations from a re-analysis of the deposited data

How the results depend on the processing

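Over the 15 alternatives 0 members passed at an adjusted p-value under 0.05, and Dcp2, Ddx6, Elavl2, Dcp1a, Celf1, G3bp2 and, in the 14 that kept it, Cpeb1 stayed lower in cKO. The median of the members stayed between -0.060 and -0.013, nearest to 0 with both of the libraries that stood apart left out. Members lower at an unadjusted p-value under 0.05 numbered 1 with the sample labelled WT replicate 2 and also cKO replicate 3 left out and 2 to 5 with 1 library left out, where 0 to 1 were higher (Zfp36l2 without cKO replicate 1, Cpeb2 without cKO replicate 2). The lowest of these counts, 2, was that without cKO replicate 3. Over the same fits 0.873% to 3.57% of all genes were lower and 0.895% to 4.23% higher. Members without overlap numbered 7 to 13 lower and 0 to 3 higher with 1 library left out, since fewer libraries overlap less. The lower count was 13 without cKO replicate 2 and 11 without WT replicate 1 or cKO replicate 1, when 9.56%, 10.6% and 12.5% of all genes were lower without overlap, and 3 were higher without cKO replicate 1, when 12.6% of all genes were. Zfp36l2 alone, so 1 member, was higher without overlap with library totals alone and in TPM, and 2 (with Fmr1) were with both libraries left out, when 13% of all genes were lower and 14% higher without overlap. The paralog shares without overlap numbered 5 to 8 with 1 library left out, the 8 being without WT replicate 1 and 7 without cKO replicate 1.

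Of the other machinery genes, unadjusted calls were 0 lower with library totals alone, in TPM and with both libraries left out. Of all genes, 1.27%, 1.26% and 1.06% were lower in these fits. Unadjusted, 0 machinery genes were higher with no filter and 2 in TPM, against 2.25% and 1.85% of all genes. Those without overlap and higher numbered 6 of the 86 with library totals alone and 14 of the 86 with both libraries left out, against 6.04% and 14% of all genes. With 1 library left out, 0 to 4 were higher and 0 to 1 lower unadjusted, against 0.895% to 4.23% and 0.873% to 3.57% of all genes. In the same fits 3 to 11 were higher and 3 to 10 lower without overlap, against 6.86% to 12.6% and 6.89% to 12.5% of all genes. Ybx1 passed at -3.00 with DESeq2 (adjusted p-value 5.46e-10) and at -3.49 with both libraries left out (0.0188 by edgeR). With 1 library left out it ranged from -3.28, passing without the sample labelled WT replicate 2, to -2.75.

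Deviations from genotype means correlated at 0.41, 0.31 and -0.02 between libraries numbered 1, 2 and 3. The main fit did not include the number, and whether libraries with the same number form pairs is not settled by these values. With the replicate block, 7 members were lower and 1 higher (Zfp36l2) at an unadjusted p-value under 0.05, against 4.60% and 3.57% of all genes. The 7 were Dcp2, Ddx6, Elavl2, Dcp1a, Pabpc1, Pabpc4 and Cpeb4. In the same fit 2 other machinery genes were higher, 0 members passed adjusted, and Ybx1 passed at -2.95. Except where given here, the cause was not tested. Depth limits Cpeb1, which rests on at most 17 counts a library.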
